A study of Homo sapiens with 2 samples.

Results

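The peaks described here are all those that the authors called on the mitochondrial genome in DNA recovered with an antibody against AIM2, a sensor of cytosolic DNA. They were chosen by their reference sequence alone, and there were 7 among 1525 peaks in the 20 Gy library and 7 among 1936 in the 0 Gy library. The cells were HaCaT, an immortalised human keratinocyte line. The irradiated cells were given an X-ray dose of 20 Gy at 1.15 Gy/min, and the title of that sample also gives 4 h without naming the event from which it counts. The control cells were labelled as not treated (0 Gy). Both groups were fixed in 1% formaldehyde for 10 minutes, and each was sequenced as 1 library. With 1 library per group no difference could be tested against replicate spread, and the intervals below are 95% intervals for counting error within these libraries. The peak caller kept 6423989 fragments at 20 Gy and 8786091 at 0 Gy, so the kept depth at 20 Gy was 0.731 times that at 0 Gy. No input library was used, so a peak can reflect DNA that was abundant for reasons other than the antibody.

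The human mitochondrial genome is a small circle, present in many copies per cell, packed by the protein TFAM into nucleoids in the mitochondrial matrix. It encodes the ribosomal RNAs of the mitochondrial ribosome, a set of transfer RNAs and core subunits of the respiratory chain and the ATP synthase, and nearly all of it is gene sequence apart from a control region that holds the promoters and the heavy-strand origin of replication. Released into the cytosol, mitochondrial DNA is a known ligand of DNA sensors, AIM2 among them. Over evolution, pieces of this genome were copied into the chromosomes, where they remain as pseudogenes. A read from a mitochondrial stretch with a near-identical nuclear copy may have no unique place to align. The names of the alignment files in the headers carry the marks for unique reads and for removal of duplicates.

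Peaks lay in the same places in both libraries and left more than 5000 bp of the genome in 1 stretch without any. They held 8057 bp at 20 Gy and 8012 bp at 0 Gy. Of the 15447 bp between the start of TRNF and the end of TRNP, which hold all annotated genes, 45.7% lay in peaks at 20 Gy and 45.4% at 0 Gy. Every peak overlapped its counterpart over at least 94.1% of either one's length. Of the 14 peak edges 3 were at the same base in both libraries, and the largest shift of an edge was 14 bp. The median larger edge shift was 8 bp over the 7 mitochondrial pairs and 25 bp over 1046 overlapping nuclear pairs, most of which were far lower.

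Around the genome, the first peak spanned positions 70 to 1057 in the 20 Gy library and 70 to 1049 in the 0 Gy library, over the end of the control region, TRNF and the start of the small ribosomal RNA gene RNR1. Its pileup, the number of fragments over the summit, was 1182 at 20 Gy and 769 at 0 Gy. The second peak began at 2167 in both libraries and ended at 3977 in the 20 Gy library and at 3970 in the 0 Gy library, over the large ribosomal RNA gene RNR2, TRNL1 and ND1, with pileups of 1710 at 20 Gy and 1100 at 0 Gy. No peak of either library followed for more than 5000 bp.

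The third peak (9711 to 10954 at 20 Gy, 9723 to 10958 at 0 Gy) held the end of COX3, ND3, ND4L and the start of ND4, with pileups of 1428 at 20 Gy and 934 at 0 Gy. The fourth was the shortest, 221 bp at 20 Gy and 208 bp at 0 Gy, lay inside ND4 around its summits at 11335 at 20 Gy and 11329 at 0 Gy, and had pileups of 1274 at 20 Gy and 767 at 0 Gy. The fifth (12097 to 13203 at 20 Gy, 12089 to 13201 at 0 Gy) crossed from ND4 over 3 tRNA genes into ND5, with pileups of 1582 at 20 Gy and 1001 at 0 Gy. The tRNA genes in it were TRNH, TRNS2 and TRNL2.

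The sixth peak lay in the later part of ND5, began at 13631 in the 20 Gy library and at 13637 in the 0 Gy library and ended at 14130 in both, with pileups of 1491 at 20 Gy and 928 at 0 Gy. The seventh was the longest peak of either whole list, 2186 bp at 20 Gy and 2177 bp at 0 Gy. It held most of ND6, all of CYTB and the start of the control region (14323 to 16508 at 20 Gy, 14337 to 16513 at 0 Gy), with pileups of 1699 at 20 Gy and 1072 at 0 Gy. In each library the peaks over RNR2 and ND1 and over CYTB were the highest, and the RNR1 and short ND4 peaks the lowest.

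**Figure D1:**
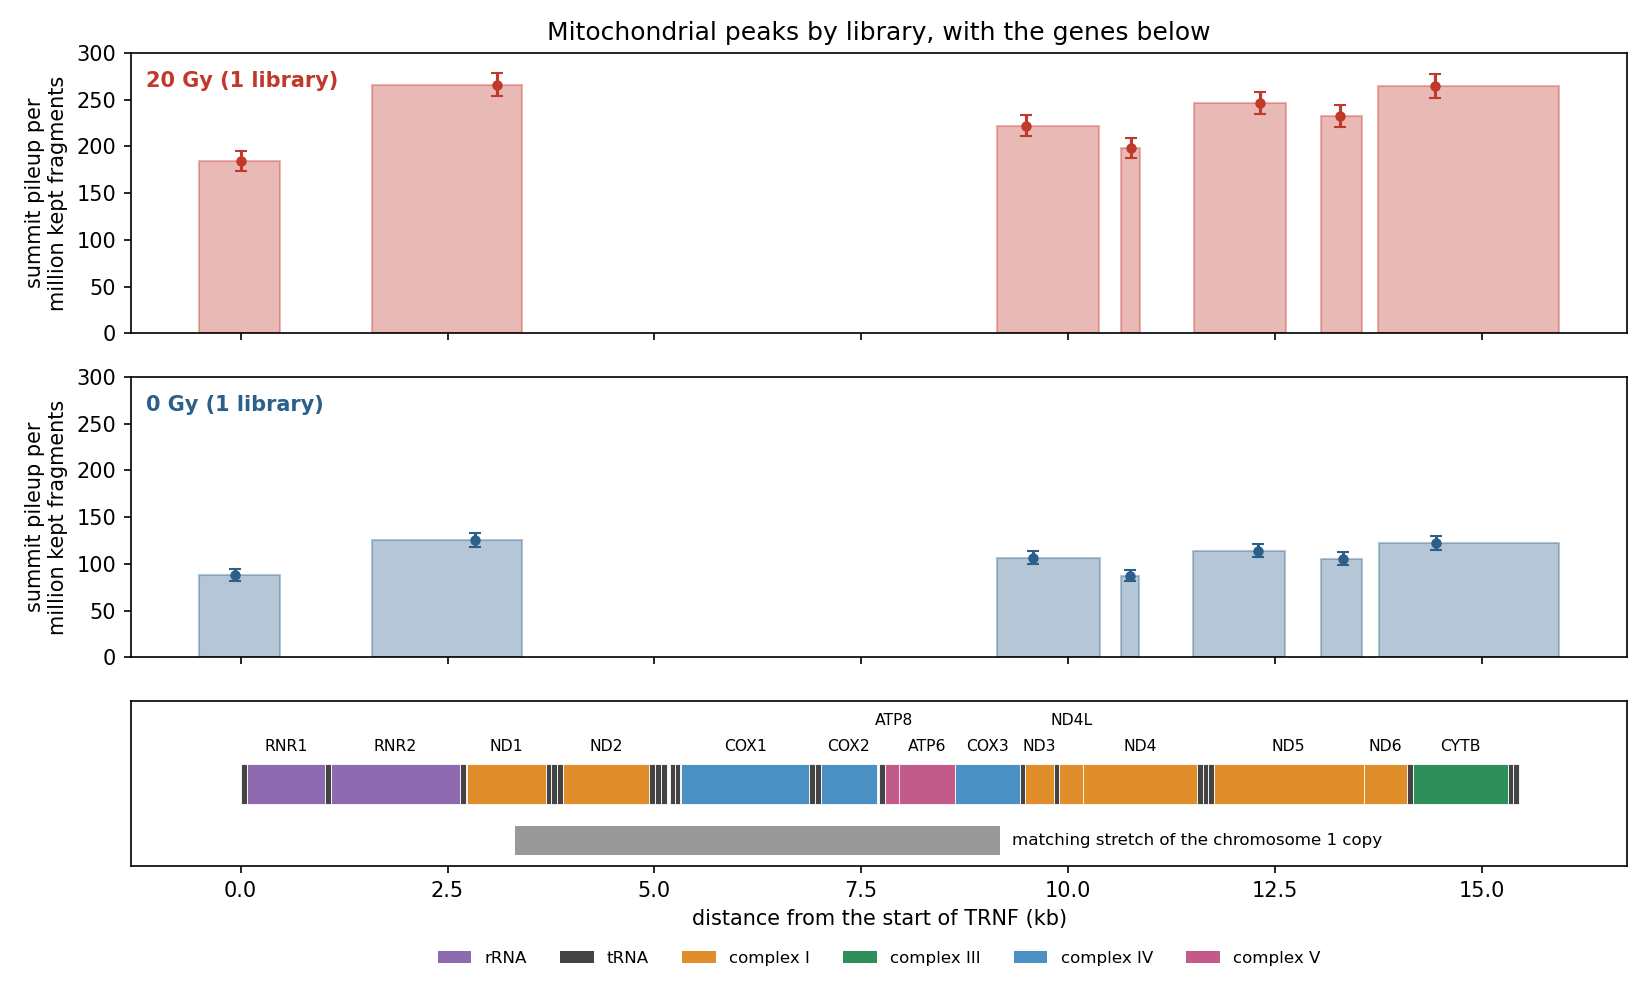
Bars span each peak (x axis, distance from the start of TRNF in kb) and rise to its summit pileup per 1000000 kept fragments (y axis), with a point at the summit and bars for the 95% Poisson interval; the upper panel is the 20 Gy library and the middle panel the 0 Gy library, and the lower panel shows the genes and the stretch that a chromosome 1 copy matches. All 7 peaks recur at the same places, with heights of 184 to 266 at 20 Gy and 87.3 to 125 at 0 Gy, and the widest empty stretch lies under the grey bar.

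By gene, 20 of the 37 mitochondrial genes had at least 1 bp in a peak in each library and 17 had none. Both ribosomal RNA genes were covered in part. RNR1, the small ribosomal RNA, had 43.0% of its length in a peak at 20 Gy and 42.1% at 0 Gy, all at its start. RNR2, the large ribosomal RNA, had 68.2% in a peak in both libraries, all at its end.

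Of the 7 subunits of complex I, the NADH dehydrogenase that passes electrons to ubiquinone, 6 had sequence in peaks and ND2 had none. ND3 and ND4L lay wholly inside the third peak in both libraries. ND1 had 70.2% of its length in a peak at 20 Gy and 69.5% at 0 Gy, ND4 had 33.2% at 20 Gy and 33.1% at 0 Gy, and ND5 had 75.4% at 20 Gy and 75.0% at 0 Gy. ND6, encoded on the opposite strand from the other protein genes, had 66.9% at 20 Gy and 64.2% at 0 Gy, which was the widest difference between the libraries for any gene. Its difference of 2.67 percentage points comes from a peak start 14 bp earlier at 20 Gy.

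CYTB, the cytochrome b subunit of complex III, lay wholly in the seventh peak in both libraries. Complex IV, the cytochrome c oxidase, was almost bare: COX1 and COX2, its catalytic core subunits, had no peak in either library, and COX3 had 35.7% of its length in one at 20 Gy and 34.2% at 0 Gy. Neither ATP8 nor ATP6, subunits of the ATP synthase, had any sequence in a peak. Of the 22 tRNA genes, 10 lay wholly in peaks in both libraries, 12 had no base in one and none was covered in part. The 10 were TRNF, TRNL1, TRNG, TRNR, TRNH, TRNS2, TRNL2, TRNE, TRNT and TRNP.

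Non-coding sequence was split in the same way. The control region before TRNF was covered from position 70 onwards, 507 bp in each library, and after TRNP it was covered for 485 bp at 20 Gy and 490 bp at 0 Gy. The first 69 bases of the sequence were outside every peak, as was the sequence after 16508 at 20 Gy and after 16513 at 0 Gy. Both lie beside the point where the circle is cut open for alignment. The part of that cut in the lack of a peak was not tested. The 31 bp between TRNN and TRNC, at 5730 to 5760, where the light-strand origin of replication lies, had no peak.

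**Figure D2:**
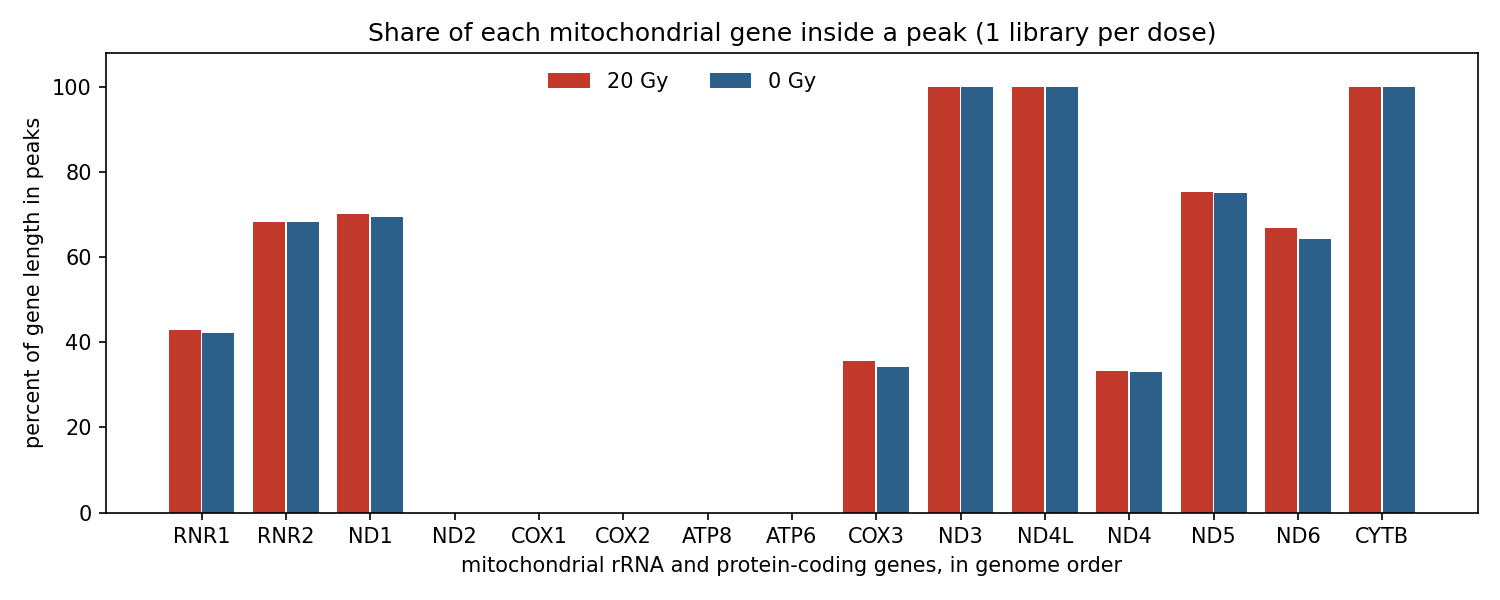
Percent of the length of each rRNA and protein-coding gene that lies in a peak (y axis), in genome order (x axis), for the 20 Gy and the 0 Gy library, with no error bars because each dose has 1 library. ND3, ND4L and CYTB reach 100% in both, ND2, COX1, COX2, ATP8 and ATP6 are at 0, and the bars of the 2 libraries differ by at most 2.67 percentage points.

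Between the peaks of the linear sequence lay 6 stretches without one. The longest was 5733 bp at 20 Gy, between 3978 and 9710, and 5752 bp at 0 Gy, between 3971 and 9722. It holds 16 whole genes, namely ND2, COX1, COX2, ATP8, ATP6 and 11 tRNA genes (TRNI, TRNQ, TRNM, TRNW, TRNA, TRNN, TRNC, TRNY, TRNS1, TRND and TRNK), with the end of ND1 and the start of COX3. The next, 1109 bp at 20 Gy and 1117 bp at 0 Gy, holds the end of RNR1, all of TRNV and the start of RNR2. The other 4 were between 192 and 656 bp at 20 Gy and between 206 and 660 bp at 0 Gy, and lie in ND4, in ND5 and at the border of ND5 and ND6.

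A stretch without a peak was not necessarily low, because the caller asks for an excess over the local background. That is the coverage within 5000 bp on either side, averaged over 10000 bp. Near the ends of the linear sequence part of that range holds no sequence and counts as empty, which lowers the background. At the first summit it was 282 at 20 Gy and 178 at 0 Gy. The mean depth from the start to 5000 bp after that summit was 505 at 20 Gy and 324 at 0 Gy. The background was itself mitochondrial signal. At the summits it ran from 282 to 636 fragments at 20 Gy and from 178 to 399 at 0 Gy, where the lowest possible background of the caller, set by the genome-wide mean, was 0.419 at 20 Gy and 0.595 at 0 Gy. From these backgrounds and the weakest p-value in each list, the lowest pileup that could be called was computed for each stretch. In the 660 bp stretch of ND4 at 0 Gy it was 471 to 486, or 48.6% to 61.4% of the summits of the peaks beside it. In the matching 656 bp at 20 Gy it was 725 to 747, or 47.2% to 56.9% of those summits. Among the short stretches of ND4, ND5 and ND6, the limit was lowest beside the COX3 to ND4 peak, at 553 at 20 Gy and 370 at 0 Gy. In those of ND5 and ND6 it lay between 702 and 747 at 20 Gy and between 459 and 486 at 0 Gy. Coverage below these limits would not have been called.

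Both summits beside the stretch across RNR1, TRNV and RNR2 lie within 5000 bp of the start of the sequence. Part of their background range was therefore empty. This stretch was held to a lower limit. A pileup of 357 to 362 would have been enough there at 20 Gy, and one of 237 to 240 at 0 Gy, which is 21.2% to 30.2% of the summits beside it at 20 Gy and 21.8% to 30.8% at 0 Gy.

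For part of the longest stretch the number of fragments could be recovered. The background at a summit was read as the number of fragment ends within 5000 bp, so the difference between successive summits gives the ends between the borders of their windows. From 5583 to 8678, which is COX1, COX2, ATP8 and the start of ATP6 with tRNA genes around COX1, the 20 Gy library held 464 ends, or 232 fragments (203 to 264). From 5505 to 8407, which is COX1, COX2 and the start of ATP8 with the same tRNA genes and 1 more, the 0 Gy library held 211 ends, or 105.5 fragments (86.3 to 128). The mean depth in this stretch was 15.1 fragments at 20 Gy and 7.60 at 0 Gy, which is 0.884% and 0.691% of the highest mitochondrial pileup of the same library. A stretch from COX2 to ATP6, which overlaps the first, was denser, with a mean depth of 39.9 from 7896 to 8866 at 20 Gy and of 17.2 from 7870 to 8893 at 0 Gy. Both mean depths were below the lowest pileup that could be called beside the stretch, 362 at 20 Gy and 240 at 0 Gy. Coverage was not recovered for the sequence before 5583 at 20 Gy and 5505 at 0 Gy apart from the peaks there. At its other end, the sequence from ATP6 to TRNG had a mean depth of 326 at 20 Gy and 197 at 0 Gy. Of that sequence 73.5% at 20 Gy and 73.8% at 0 Gy lay outside peaks, and the rest was the start of the COX3 peak. How much of that depth lay outside the peak was not recovered.

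Over COX1 and COX2 the count was low for the mitochondrial genome and above the mean of the whole genome. Per kb and per 1000000 kept fragments, the part over COX1 and COX2 held 11.7 fragments at 20 Gy (10.2 to 13.3) and 4.14 at 0 Gy (3.38 to 5.00), where the genome-wide mean is 0.324. These are 36.0 times that mean at 20 Gy and 12.8 times at 0 Gy. The sequence from the start to the end of ND2, which includes the first 2 peaks, held 390 at 20 Gy and 176 at 0 Gy.

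**Figure D3:**
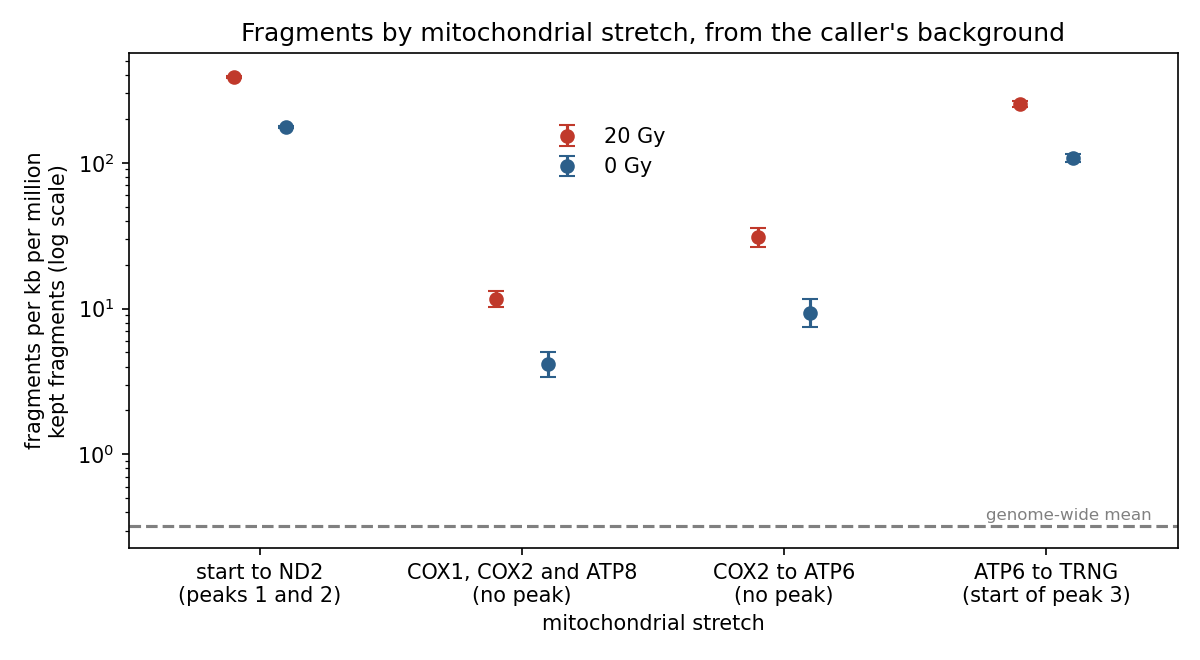
Fragments per kb per 1000000 kept fragments (y axis, log scale) in 4 mitochondrial stretches (x axis; the middle pair overlap) for the 20 Gy and the 0 Gy library, with 95% Poisson intervals and the genome-wide mean of 0.324 as a dashed line. The stretches without a peak hold 11.7 and 30.8 at 20 Gy and 4.14 and 9.34 at 0 Gy, far below the stretches that contain peaks and above the dashed line.

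The borders of the longest stretch lay close to those of a long nuclear copy of mitochondrial sequence on chromosome 1. There the RefSeq annotation of GRCh38 lists 7 pseudogenes in a row from 629062 to 634922, in mitochondrial order: MTND1P23, MTND2P28, MTCO1P12, MTCO2P12, MTATP8P1, MTATP6P1 and MTCO3P12. Measured between gene starts from MTND2P28 onwards, they keep the spacing of the mitochondrial genes to within 2 bp over the run. MTATP8P1 and MTATP6P1 have exactly the lengths of ATP8 and ATP6, at 207 and 681 bp. By this spacing the copy matches mitochondrial positions 3892 to 9753. The whole of the longest stretch lay inside that match in both libraries, and the stretch made up 97.8% of the match at 20 Gy and 98.1% at 0 Gy. The ND1 peak reached 86 bp into the match at 20 Gy and 79 bp at 0 Gy, and the COX3 peak 43 bp at 20 Gy and 31 bp at 0 Gy. Each was less than the computed mean kept fragment length of 202 bp at 20 Gy and 209 bp at 0 Gy. Each was also less than the length d in the headers, 170 bp at 20 Gy and 177 bp at 0 Gy. Only 1.60% of the sequence in peaks at 20 Gy and 1.37% at 0 Gy lay inside the match.

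Nuclear copies as such did not separate genes with peaks from genes without. The annotation names 474 nuclear pseudogenes after the 13 mitochondrial protein genes, and 13 MTRNR2L genes after RNR2. They form 107 runs of at least 2 neighbours in mitochondrial order, in either direction, of which 59 have at least 3. Those 59 runs together match 100% of the longest stretch in both libraries. They also match at most 87.7% of the sequence in peaks at 20 Gy and 87.8% at 0 Gy. Beyond position 15883 these peak percentages rest only on the run from MTCYBP21 to MTND5P1 on chromosome 21. Its CYTB pseudogene is longer than CYTB, so by length this run reaches 17639, past the end of the last peak. Whether it matches mitochondrial sequence beyond CYTB was not tested. CYTB, which lies wholly in a peak, has 45 annotated nuclear pseudogenes, 9 of them within 1% of its length, while COX1, with no peak, has 58 and 6. ATP8, also with no peak, has 4, of which 2 are within 1% of its length.

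Even spacing did not separate them either. Of the runs of at least 3, 4 kept their spacing within 5 bp, against a median spread of 102 bp. One is the chromosome 1 copy above. The other 3 match sequence that carries peaks: the run from MTCYBP18 to MTND3P25 on chromosome 5, at 134923303 to 134928527, matches 10270 to 15493, and shorter runs on chromosome 13 (MTND5P2 to MTCYBP3) and chromosome 1 (MTCYBP15 to MTND5P18) match parts of ND5, ND6 and CYTB. These 4 runs matched 52.0% of the sequence in peaks at 20 Gy and 51.8% at 0 Gy, and all 4 short stretches without a peak in ND4, ND5 and ND6. The second longest stretch, over RNR1, TRNV and RNR2, lay outside them. Copies of RNR1 and of the tRNA genes were not among the pseudogenes searched. Whether that stretch has a nuclear copy over RNR1 and TRNV could therefore not be seen this way. Base identity between copy and mitochondrial genome, which decides whether a read aligns uniquely, was not analysed here, so whether the loss of reads shared with the chromosome 1 copy made the longest stretch was not tested.

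Peaks at nuclear genes and pseudogenes were rare in both libraries, and the nuclear copies were no exception. None of the 7 pseudogenes of the chromosome 1 copy had a peak within 1000 bp in either library. Among all 487 nuclear copies, 1 overlapped a peak at 20 Gy and 0 at 0 Gy, where 0.193% of all 17088 nuclear pseudogenes did at 20 Gy and 0.187% at 0 Gy. These counts are near that background and show nothing particular to the copies. The copy with a peak was MTCO1P25, a COX1 pseudogene on chromosome 7, whose peak at 69331925 to 69332245 had a pileup of 8 and a fold enrichment of 5.57 in the authors' deposited list. Of 25 nuclear genes that serve mitochondrial DNA, such as TFAM, which packs it, POLG, its polymerase, and TWNK, its helicase, 0 had a peak within 1000 bp in either library, where 0.244% of all 20043 protein-coding nuclear genes had one at 20 Gy and 0.225% at 0 Gy. At that background a count of 0 of 25 shows nothing particular to these genes.

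Scaled to kept fragments, every mitochondrial peak was more than 2 times as high in the 20 Gy library. The RNR2 and ND1 peak reached 266 fragments per 1000000 kept at 20 Gy (254 to 279) and 125 at 0 Gy (118 to 133), a ratio of 2.13 (1.97 to 2.30). The CYTB peak reached 264 at 20 Gy (252 to 277) and 122 at 0 Gy (115 to 130), a ratio of 2.17 (2.01 to 2.34). The short ND4 peak had the highest ratio, 2.27 (2.08 to 2.49), and the COX3 to ND4 peak the lowest, 2.09 (1.92 to 2.27). The interval of each ratio overlapped that of every other, so no one gene stood apart from the rest in these counts. The 2 peaks of ND5 had ratios of 2.16 and 2.20. The RNR1 peak reached 184 at 20 Gy (174 to 195) and 87.5 at 0 Gy (81.4 to 93.9), and the interval of its ratio was 1.92 to 2.31.

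All 7 mitochondrial pairs had a ratio of at least 1.5, where 11.3% of all 1053 overlapping pairs of the series had one. The nuclear pairs had a median ratio of 1.06, and 9 of the 1046 had ratios as high as the lowest mitochondrial one. Low pileups scatter widely, so the higher ones are the closer comparison. Of 103 nuclear pairs with a pileup of at least 100 at 0 Gy, a limit set after the data were seen, the median ratio was 1.02 and 1 pair had a ratio of at least 1.5.

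The mitochondrial share of all kept fragments differed too. Mitochondrial fragments, counted from the backgrounds at the summits in ND1 and at the start of ND5, whose windows together span the genome, came to at most 45756 of those kept at 20 Gy and 27692 at 0 Gy. The lower bounds, with the overlap of the windows taken off, were 45564 at 20 Gy and 27608 at 0 Gy. The upper bounds are 0.712% of kept fragments at 20 Gy and 0.315% at 0 Gy, a ratio of 2.26 (2.23 to 2.29). The part of the longest stretch over COX1 and COX2 had a ratio of 2.82 (2.22 to 3.57), and the overlapping part from COX2 to ATP6 one of 3.30 (2.54 to 4.31), whose interval lies above that of the total. The stretches compared do not have the same borders in both libraries and coverage changes along them, and the part of this in their ratios was not tested. The ratio over the first 5582 bp at 20 Gy and the first 5504 bp at 0 Gy was 2.21 (2.15 to 2.27). The ratio was thus above 2 in peaks and in the measured parts of the stretch without peaks. More mitochondrial DNA per cell, more of it recovered by the antibody and a difference between library preparations cannot be told apart here.

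Fold enrichment over the local background did not carry this difference. It was 5.95 at 20 Gy and 6.07 at 0 Gy for the RNR2 and ND1 peak, 2.85 in both libraries for the CYTB peak, and 2.07 at 20 Gy and 1.99 at 0 Gy for the short ND4 peak. Over the 7 pairs the ratio of fold enrichments ran from 0.974 to 1.04, and 0 reached 1.5, where 1.99% of all 1053 pairs did. By pileup the mitochondrial peaks ranked 3 to 10 of 1525 at 20 Gy and 10 to 25 of 1936 at 0 Gy, while by fold enrichment they ranked 977 to 1523 at 20 Gy and 1191 to 1933 at 0 Gy. These ranks come from lists of different lengths and describe each list alone. The background counts the same mitochondrial fragments as the pileup, so a rise shared by the whole genome cancels in this measure. For the RNR2 and ND1 peak and the CYTB peak, part of the background range lies past an end of the linear sequence. That lowers the background and raises fold enrichment, so the values of different peaks are not directly comparable.

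**Figure D4:**
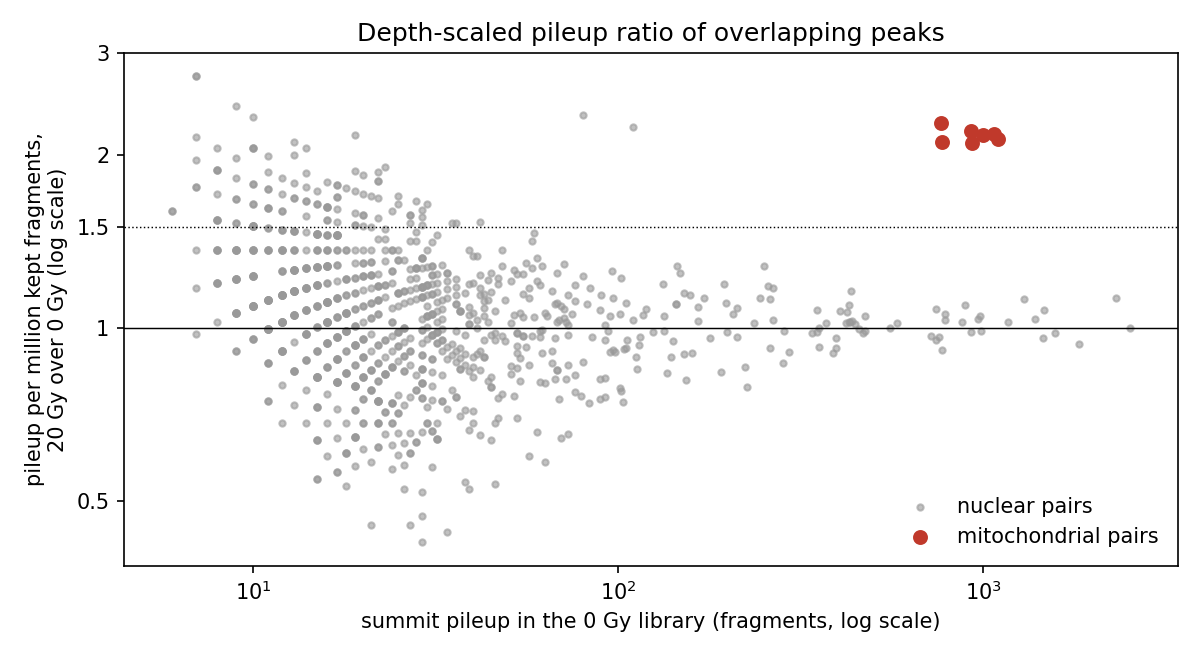
Ratio of pileup per 1000000 kept fragments, 20 Gy over 0 Gy (y axis, log scale), against the summit pileup at 0 Gy (x axis, log scale) for overlapping peaks, with 7 mitochondrial pairs in red and 1046 nuclear pairs in grey; lines mark 1 and 1.5. The mitochondrial pairs sit between 2.09 and 2.27, above nuclear pairs of like pileup, which lie around 1.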

How the data were processed

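DNA recovered with an AIM2 antibody was sequenced from 1 library of irradiated and 1 of unirradiated HaCaT cells. The submitters' processing notes name Trimmomatic 0.36, BWA 0.7.15-r1140, MACS2 2.1.2 and GRCh38.p13. Each library's peaks were called on their own in paired-end mode, per the file headers, with a q-value limit of 0.05, at most 1 fragment per position, a local background over 10000 bp and no control. The deposited pileup is the unscaled coverage signal at the summit, p-values and q-values are deposited as −log10, and the deposited fold enrichment is a ratio to the background, per the file headers. Groups came from the treatment label.

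The local background was computed from the authors' fold enrichment as (pileup + 1) / fold − 1, which gave the deposited −log10 p to within 0.000766 for every peak. Background values below 2, other than those at the genome-wide floor, were whole multiples of 1 fragment end in all 1154 peaks at 20 Gy and all 1372 at 0 Gy, to within 0.05. The floor gave the mean kept fragment length, which was used for the mean depths. It was longer than the length d in the headers, 170 bp at 20 Gy and 177 bp at 0 Gy, and the reason was not tested. Counts of mitochondrial ends were whole to within 0.176. The step was run on simulated data built with the same counting rule, which checks the arithmetic only. That run cannot show whether the caller counts fragment ends in this way. Peaks were paired by largest mutual overlap of at least 1 bp. Intervals are exact Poisson or conditional binomial at 95% and cover counting error only, since amplified fragments are not independent molecules. Removing fragments at the same position trims dense coverage most.

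Genes and pseudogenes came from a RefSeq table of GRCh38.p14, a later patch of the same build. A mitochondrial sequence was not used here. Pseudogenes within 2000 bp in mitochondrial order formed a run. All mitochondrial peaks and genes are named; the runs of at least 3 genes are given by count, and of these the evenly spaced ones singly, a choice made after their values were seen. The members and lists were chosen with earlier results of these data known. Python 3.11.15 and SciPy 1.17.1 were used.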

Additional observations from a re-analysis of the deposited data

How the results depend on the processing

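Of 38 recomputed values, 31 stayed within 1.5 times the count or within their interval and 7 moved. Keeping only peaks whose fold enrichment reached the median of their list left 0 mitochondrial peaks at 20 Gy and 0 at 0 Gy, and the cause was not tested. Asking for the whole gene in peaks left 13 genes in each library, and asking for a summit left 6 at 20 Gy and 5 at 0 Gy, by construction of the rule. The median pileup ratio of 2.16 became 0.992 for fold enrichment, 2.14 for fragments before filtering and 2.05 relative to the median nuclear peak, and leaving out each pair in turn gave 2.14 to 2.16. The counts of fragments by stretch and the mitochondrial share, with their alternatives (a p-based background, the lower bound of the total), and the evenly spaced runs were added after the data were seen. Copies by base identity and the joined circle were not run. Depth limits the values over COX1 and COX2, which rest on 232 fragments at 20 Gy and 105.5 at 0 Gy. No paired analysis was possible because there was only 1 library at each dose.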
